A study of Mus musculus with 12 samples.

Results

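Follicular B cells that lack normal amounts of the transcription factor Ikaros were compared between a late and an early time of stimulation through the B cell receptor (BCR). The comparison rests on 4 of the 12 arrays of the study, the 2 arrays titled as IkL/L cells with anti-IgM at 12 h and the 2 titled as IkL/L cells with anti-IgM at 3 h. Each gene was read from 1 probe set, the brightest over the 12 arrays among those with a single gene symbol, which gave 18193 genes.

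The cells came from the spleens of C57Bl/6 mice aged 6 weeks. They were sorted as B220-positive, CD23-high and CD21-low cells, the surface profile of follicular B cells, at a purity above 98%. IkL/L mice carry the L allele on both copies of Ikzf1, the gene of Ikaros, and WT mice carry the normal gene. Cells of both genotypes were kept for 3 h without stimulus, for 3 h with anti-IgM or for 12 h with anti-IgM, with 2 arrays in each of the 6 groups. Anti-IgM was used at 10 µg/ml as goat F(ab')2 fragments, which cross-link surface IgM without engaging the inhibitory Fc receptor. No cells were kept 12 h without stimulus, so an effect of anti-IgM between 3 h and 12 h and an effect of the longer culture cannot be told apart. The study reports 2 independent experiments, and the labels do not say how many mice gave the cells of an array. P-values therefore measure the spread between these arrays, which may in part be technical.

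Cross-linking of the BCR activates the kinases Lyn and Syk and then the calcium, ERK, PI3K and NF-kB pathways. Immediate early genes such as Fos, Egr1 and Nr4a1 are transcribed first, and a later phase brings growth, metabolic change and entry into the cell cycle. Ikaros is a zinc finger protein that works with the NuRD chromatin complex, and in B cells it is known to restrain the response to BCR signals.

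The deposited signals had array medians between 3.12 and 3.21 on the log2 scale, so many genes lie near background. A level of 4.21, which is 1 above the highest median, was used as a floor. Where an array of the lower group was under that floor the fold is given as a lower bound ("at least"), computed with such arrays raised to the floor, while log2 differences, standard errors (SE) and p-values are from the values as deposited. Replicate arrays of a group correlated with r between 0.99 and 0.994 over the 18193 genes. The 2 WT groups with anti-IgM were used to set the IkL/L shift beside the WT shift. In WT the replicate 1 arrays stood apart from all others in a sex-linked transcript. Xist, the RNA of the inactive X chromosome, read 10.01 in WT replicate 1 at 12 h and 10.21 at 3 h, against 3.47 and 3.35 in WT replicate 2. On the 4 IkL/L arrays with anti-IgM it stayed between 3.19 and 3.44. Results in WT are therefore also given without WT replicate 1 in all conditions. That leaves 1 array in each WT group, so the spread in such a fit comes from the IkL/L arrays alone. Fewer calls in it cannot be set down to replicate 1 itself.

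Between 3 h and 12 h with anti-IgM, 1659 genes were higher at 12 h and 1168 were lower in IkL/L cells (limma, Benjamini-Hochberg adjusted p under 0.05 over 18193 genes). These are 9.12% and 6.42% of the genes tested, or 15.5% in both directions. At least 2-fold differences were seen in 727 of the higher and 515 of the lower genes. With replicate as a block within genotype the counts were 2278 higher and 1697 lower. Leaving out replicate 1 at 3 h gave 1021 higher and 812 lower genes, and leaving out replicate 2 at 3 h gave 1039 and 590. Without replicate 1 at 12 h the counts were 1248 and 691, and without replicate 2 at 12 h they were 1026 and 771. Rises made up 58.7% of the changed genes. This split depended on the scaling: centring each array on its median gave 1184 higher and 1430 lower genes (45.3% higher), and scaling to equal housekeeping means gave 785 higher and 4587 lower (14.6% higher). That last scaling moved the median of all genes by -0.35 on the log2 scale, and 3 of the 10 measured housekeeping genes themselves rose at 12 h (Gusb, Pgk1 and Sdha). The count of rises against falls is therefore relative to the scaling, and so are the counts in gene groups. The shares of all genes, 9.12% higher and 6.42% lower, are the background for the counts in gene groups below.

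**Figure D1:**
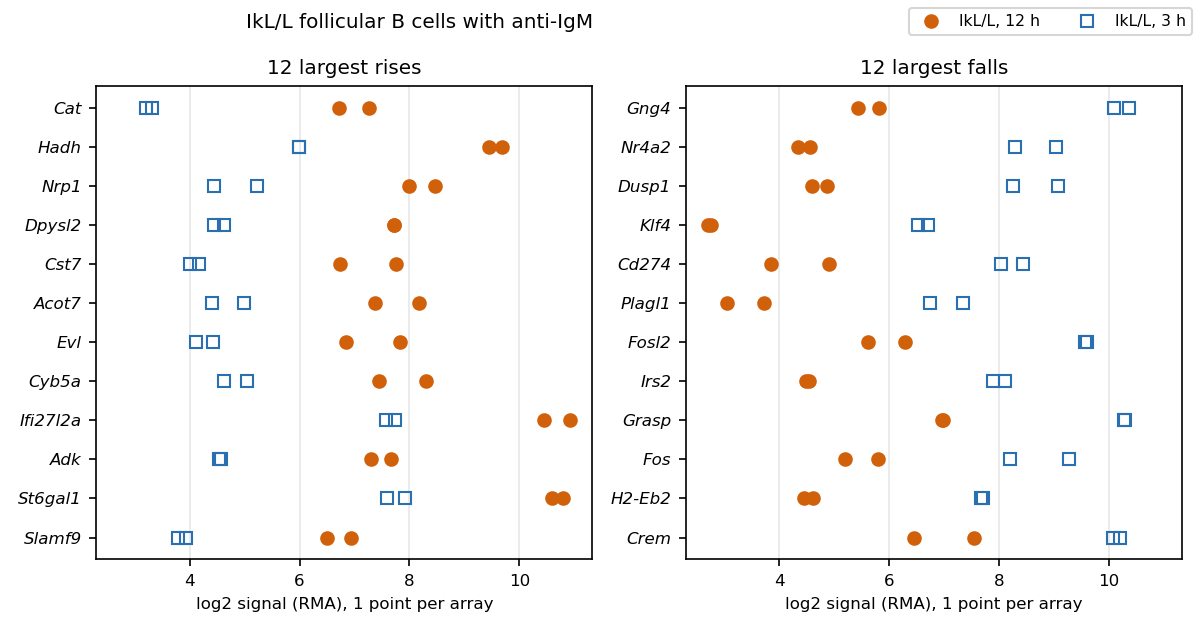
Log2 signal on each array for the 12 largest rises (left panel) and the 12 largest falls (right panel) in IkL/L cells with anti-IgM; filled circles are the 2 arrays at 12 h and open squares the 2 arrays at 3 h. In all 24 genes the 2 groups do not overlap, as the rule that picked the genes required.

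Cat, which encodes catalase, read 6.71 and 7.27 at 12 h, against 3.21 and 3.32 at 3 h. That is a fold of at least 6.9 (log2 difference 3.73, SE 0.32, adjusted p = 7.42e-05). Cells without stimulus read 7.29 and 6.24, so the 3 h arrays are the low ones. Hadh, an enzyme of mitochondrial fatty acid oxidation, read 9.69 and 9.44 at 12 h, against 5.98 and 5.99 at 3 h, a 12.0-fold difference (adjusted p = 8.83e-06). Evl, an actin regulator, read 7.82 and 6.84 at 12 h, against 4.11 and 4.43 at 3 h, and its unstimulated levels of 7.91 and 7.81 were also far above 3 h. Cyb5a (cytochrome b5), Dpysl2 (a cytoskeletal protein) and Slamf9 (a receptor of the SLAM family) showed this order as well, with the lowest mean at 3 h. Cyb5a was 8.25-fold, Dpysl2 9.11-fold and Slamf9 at least 5.71-fold higher at 12 h.

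Of the 12 largest rises 8 had a lower mean at 3 h than without stimulus. In 4 the mean at 3 h was above that without stimulus, among them Nrp1 and Acot7. Nrp1, a coreceptor for semaphorins and VEGF, read 2.82 and 3.99 without stimulus, 4.45 and 5.23 at 3 h, and 8.0 and 8.47 at 12 h. Its 12 h level was 10.5-fold above that at 3 h (adjusted p = 0.000985). Acot7, an acyl-CoA thioesterase, read 3.55 and 4.18, then 4.41 and 4.98, then 7.38 and 8.18 in the same order. Cst7, which encodes the protease inhibitor cystatin F, rose at least 8.18-fold between the stimulated times and Adk, which encodes adenosine kinase, 7.63-fold. The size of some of the 12 rises depended on the setting. Over the main fit and 16 other settings the lowest log2 difference was 0.82 for Adk, 1.53 for Evl and 1.55 for Dpysl2, against 3.38 for Cat. Ifi27l2a, an interferon-inducible gene, read 10.92 and 10.45 at 12 h, against 7.57 and 7.73 at 3 h (log2 difference 3.03, SE 0.77, adjusted p = 0.0229). Its call was lost in 6 of 16 other settings, which were those that left out any IkL/L array, and its WT arrays at 12 h read 11.08 and 8.29.

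Of the 12 largest falls 11 were of genes whose mean at 3 h was above that without stimulus, and several are immediate early genes. Gng4, a G protein gamma subunit, read 5.81 and 5.43 at 12 h, against 10.37 and 10.10 at 3 h, a 24.5-fold fall (log2 difference -4.62, SE 0.44, adjusted p = 0.000136). Nr4a2, an orphan nuclear receptor of the immediate early class, read 4.34 and 4.55 at 12 h, against 8.29 and 9.04 at 3 h. Dusp1, a phosphatase that switches off MAP kinases, read 4.6 and 4.86 at 12 h, against 8.26 and 9.07 at 3 h. At 12 h both genes lay below their unstimulated levels, which were 5.32 and 6.49 for Nr4a2 and 7.44 and 8.31 for Dusp1. Irs2, an adaptor of the insulin receptor, fell 11.2-fold and Plagl1, a zinc finger factor, at least 7.14-fold. Grasp, a scaffold protein, fell 9.88-fold, and Crem, a factor that responds to cyclic AMP, fell 8.89-fold. Over the main fit and 16 other settings the smallest log2 fall was -1.25 for Plagl1 and -1.50 for Crem, against -3.35 for Irs2. H2-Eb2, a class II histocompatibility gene, differed from these in its course: it read 8.12 and 8.17 without stimulus, 7.68 and 7.71 at 3 h, and 4.44 and 4.61 at 12 h.

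Of 24 measured immediate early factors 12 were lower and 2 higher at 12 h in IkL/L cells, with a median log2 difference of -1.0, beside 0.045 for all genes. Fos read 5.19 and 5.79 at 12 h, against 8.20 and 9.27 at 3 h (9.46-fold lower, adjusted p = 0.000951). Fosl2, another partner of Jun proteins in AP-1, read 5.62 and 6.29 at 12 h, against 9.57 and 9.61 at 3 h, and Maff, a small Maf factor, fell 8.87-fold. Myc, the growth regulator, read 8.82 and 9.66 without stimulus, 11.31 and 11.49 at 3 h, and 9.76 and 9.92 at 12 h, so it fell 2.94-fold between the stimulated times (adjusted p = 0.00234). Not every member was called lower. Egr1 read 9.82 and 9.64 at 12 h, against 10.23 and 10.52 at 3 h, and the difference of -0.64 missed the threshold (adjusted p = 0.313). In a fit of only the arrays compared Egr1 was called lower (limma, adjusted p = 0.0389). Egr3 read 10.56 and 10.11 at 12 h, against 9.40 and 9.32 at 3 h, and Jund was 2.00-fold higher. The calls of Egr3 (without replicate 1 or 2 at 3 h or replicate 1 at 12 h, adjusted p of at least 0.0918) and Jund (without replicate 2 at 3 h or replicate 1 at 12 h, adjusted p of 0.0919 and 0.0993) were lost when single arrays were left out. With housekeeping scaling 15 were lower and 1 higher. The number of lower members was 8 without replicate 2 at 3 h, and lay between 9 and 14 without any other single array.

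Negative regulators of ERK signalling and the NF-kB group fell in part. Of 13 ERK feedback regulators 6 were lower and none higher, and 8 were lower with housekeeping scaling. When 1 IkL/L array was left out 5 or 6 were lower, and 1 was higher without replicate 2 at 3 h. Errfi1, an inhibitor of the EGF receptor family, read 4.12 and 4.31 at 12 h, against 5.41 and 6.15 at 3 h, and Dusp10, a phosphatase of JNK and p38, was at least 1.28-fold lower. Of 18 NF-kB subunits and targets 5 were lower and 1 higher. With replicate as a block 10 were lower and 1 higher, with the mean of all probe sets 9 and 1, and with housekeeping scaling 12 were lower and none higher. Nfkbiz, an inducible IkB protein, read 8.46 and 8.55 at 12 h, against 9.74 and 10.02 at 3 h (2.59-fold lower, adjusted p = 0.000328). Tnfaip3, the A20 deubiquitinase that dampens NF-kB, was 2.83-fold lower. Bcl3, the member that was higher, read 5.2 and 5.42 at 12 h, against 4.22 and 4.25 at 3 h, and lost its call without replicate 1 or 2 at 3 h or replicate 2 at 12 h (adjusted p between 0.0797 and 0.104).

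Of 19 measured surface proteins of activated B cells 10 were lower at 12 h, none was higher and 9 did not pass the test, with a median of -0.60. With replicate as a block 1 was higher, and with housekeeping scaling 13 were lower. Cd274 (PD-L1) read 5.57 and 6.94 without stimulus, 8.03 and 8.44 at 3 h, and 3.85 and 4.90 at 12 h, a fall of at least 12.8-fold between the stimulated times (adjusted p = 0.000404). Cd86, a costimulatory ligand of CD28, read 8.29 and 8.78 at 12 h, against 9.91 and 10.41 at 3 h. Cd69, the early activation antigen, read 7.14 and 7.89 at 12 h, against 9.25 and 9.49 at 3 h. Il2ra, the alpha chain of the IL-2 receptor, was 3.28-fold lower. Each of these 4 genes had lower levels at 12 h in WT cells too (limma, adjusted p between 0.000758 and 0.0046). Without WT replicate 1 the WT fall of Cd86 was past the threshold (adjusted p = 0.0231) and those of Cd274, Cd69 and Il2ra were not (adjusted p between 0.0524 and 0.0727).

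Secreted factors split. Of 20 chemokines and cytokines 7 were lower and 3 higher, but the lower count was 2 without replicate 2 at 3 h and 3 without replicate 1 at 12 h, and 11 with replicate as a block. With housekeeping scaling 10 were lower and 2 higher. Ccl22, a ligand of the receptor CCR4 on T cells, was the member with the largest rise, at 6.54 and 6.82 at 12 h, against 4.06 and 4.3 at 3 h. Il16, a T cell attractant, rose 2.26-fold but stayed far below its unstimulated level (7.24 and 7.33 at 12 h, against 9.90 and 9.80 without stimulus). Vegfa, the angiogenic factor, fell 3.29-fold and Lta (lymphotoxin alpha) at least 1.91-fold.

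Receptors that place B cells in lymphoid tissue changed in both directions. Of 15 homing and chemotactic receptors 6 were lower and 3 higher, and with housekeeping scaling 7 and 2. Cxcr4, the receptor for CXCL12, read 5.89 and 5.83 at 12 h, against 8.81 and 8.54 at 3 h (7.04-fold lower, adjusted p = 2.63e-05). Cxcr5, which guides B cells into follicles, read 8.58 and 8.38 at 12 h, against 10.27 and 10.31 at 3 h. S1pr3, a sphingosine-1-phosphate receptor, was near background without stimulus (3.47 and 3.91), read 8.34 and 8.28 at 3 h, and 5.93 and 5.93 at 12 h. Ccr7, the receptor for the T zone chemokines, fell 2.94-fold. Itga4, the alpha chain of the VLA-4 integrin, was 3.42-fold higher at 12 h, at 7.78 and 7.05, against 5.62 and 5.67 at 3 h. S1pr4, another receptor of that lipid, was 2.34-fold higher, and lost its call without replicate 1 at 3 h (adjusted p = 0.0534).

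**Figure D2:**
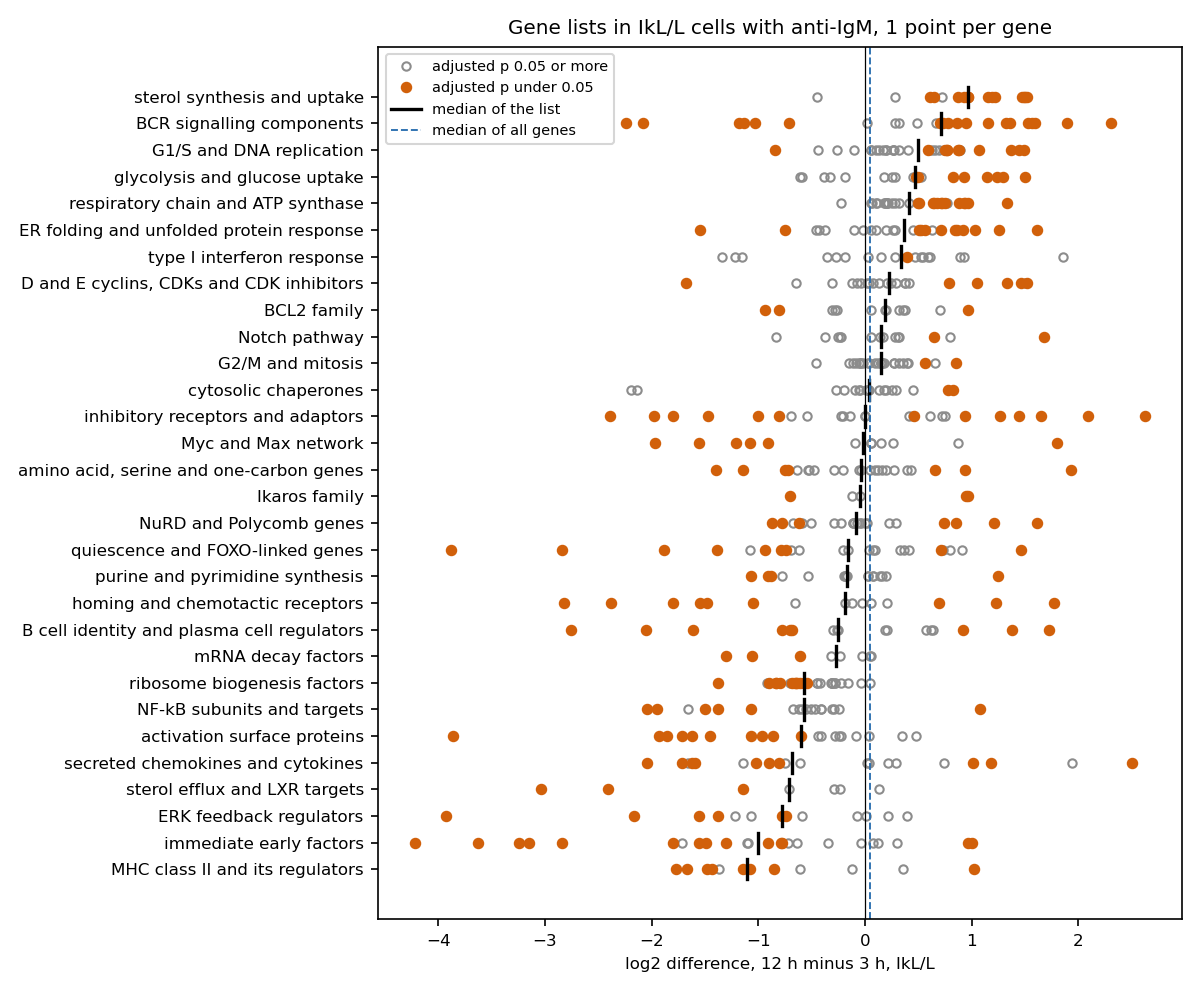
Log2 difference between 12 h and 3 h in IkL/L cells for every measured member of 30 gene lists, 1 point per gene, filled where the adjusted p was under 0.05; the short bar is the median of the list and the dashed line the median of all genes (0.045). Sterol synthesis and BCR signalling components have the highest medians (0.97 and 0.71), immediate early factors and MHC class II the lowest (-1.0 and -1.11).

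Components of BCR signalling were higher at 12 h in 13 of 24 measured members and lower in 6, with a median of 0.71. Cd79b, a signalling chain of the receptor, read 11.05 and 10.48 at 12 h, against 9.21 and 8.54 at 3 h (3.71-fold higher, adjusted p = 0.000825). Btk, the kinase that activates phospholipase C, read 8.61 and 8.80 at 12 h, against 7.28 and 7.0 at 3 h. Bank1, an adaptor of Lyn and the IP3 receptor, was 3.02-fold higher. All 3 remained below their unstimulated levels, which were 12.46 and 12.17 for Cd79b, 9.33 and 9.35 for Btk, and 9.99 and 9.81 for Bank1. Vav3, a guanine nucleotide exchange factor, did exceed it, at 4.48 and 5.03 without stimulus, 4.51 and 4.56 at 3 h, and 7.32 and 6.37 at 12 h. Fyn, a Src kinase, was the member with the largest fall, at 9.50 and 9.47 at 12 h, against 11.72 and 11.73 at 3 h. Cr2, the complement receptor CD21 that also served in the sort, fell 4.22-fold. The higher count was 9 without replicate 2 at 3 h or replicate 1 at 12 h, the lower count was 3 without replicate 1 at 3 h or replicate 2 at 12 h, and with housekeeping scaling 8 were higher and 6 lower.

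Inhibitory receptors and adaptors were divided, with 7 of 25 higher and 6 lower, beside 9.12% and 6.42% of all genes. Fcgr2b, the inhibitory Fc receptor, read 8.80 and 9.0 at 12 h, against 7.23 and 7.26 at 3 h (3.14-fold higher, adjusted p = 5.68e-05). Ptpn6, the phosphatase SHP-1 that these receptors recruit, read 11.02 and 11.04 at 12 h, against 9.72 and 9.45 at 3 h, and also exceeded its unstimulated levels of 9.99 and 10.06. Pdcd1 (PD-1) read 3.22 and 3.73 without stimulus, 5.02 and 5.54 at 3 h, and 7.78 and 8.03 at 12 h. Cd22, a sialic acid binding inhibitory receptor, read 9.74 and 8.81 at 12 h, against 8.13 and 7.89 at 3 h, and lost its call without replicate 2 at 3 h (adjusted p = 0.0602). Rgs1, which dampens signalling by chemokine receptors, fell 5.24-fold and its relative Rgs2 3.49-fold. Housekeeping scaling gave 5 higher and 11 lower members. St6gal1, the sialyltransferase that makes ligands of CD22, was 7.62-fold higher at 12 h, at 10.79 and 10.59, against 7.91 and 7.60 at 3 h.

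**Figure D3:**
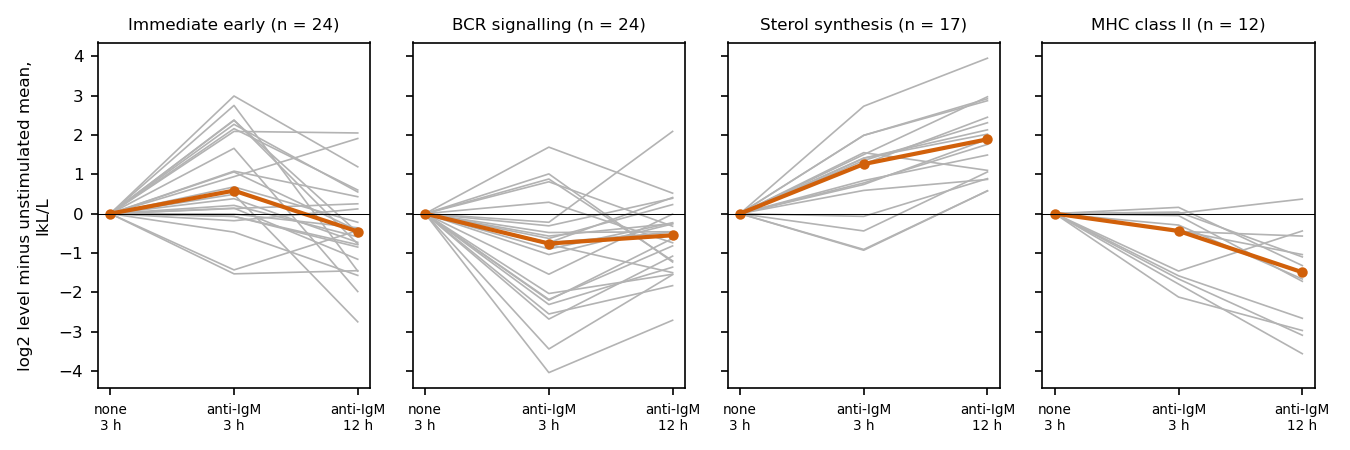
Mean log2 level at each condition minus the unstimulated mean in IkL/L cells, 1 grey line per gene and the median of the list in colour, for 4 lists; the conditions run from 3 h without stimulus to 3 h and 12 h with anti-IgM. The median of the immediate early factors is 0.58 at 3 h and -0.46 at 12 h, that of BCR signalling components -0.76 and -0.55, that of sterol synthesis 1.26 and 1.89, and that of MHC class II -0.44 and -1.49.

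Genes of cholesterol synthesis rose together. Of 17 measured members of the pathway and of sterol uptake 14 were higher at 12 h and none lower, with a median of 0.97, and 9 were higher and none lower after housekeeping scaling. Without replicate 2 at 12 h 8 were higher, and without any other single array between 10 and 12. Without IkL/L replicate 1 or 2 in all conditions 7 and 6 were higher. Mvk (mevalonate kinase) read 6.00 and 5.88 at 12 h, against 4.46 and 4.42 at 3 h (2.83-fold higher, adjusted p = 0.00015). Pmvk, the kinase of the next step, read 8.02 and 7.38 at 12 h, against 6.28 and 6.10 at 3 h. Lss, which closes the sterol ring, read 4.31 and 5.12 without stimulus, 6.18 and 6.26 at 3 h, and 7.78 and 7.59 at 12 h. Cyp51, the lanosterol demethylase, which was chosen after its values were seen, read 8.40 and 8.31 at 12 h, against 7.28 and 6.99 at 3 h. Insig1, the protein that holds back the SREBP factors, read 7.38 and 6.67 at 12 h, against 7.80 and 7.16 at 3 h, and did not pass the threshold (adjusted p = 0.56); it was also chosen after its values were seen. In the opposite process, 3 of 7 genes of sterol efflux and LXR targets were lower and none higher, and with housekeeping scaling 6 were lower. Abca1, which exports cholesterol, read 10.53 and 10.33 without stimulus, 7.81 and 7.79 at 3 h, and 5.07 and 4.46 at 12 h (8.22-fold lower than at 3 h, adjusted p = 2.63e-05). Abcg1, its partner in export, fell at least 4.77-fold.

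The promoters of the sterol genes had a sequence feature in common that did not enter the choice of genes. In the 250 bases before the first listed start in RefSeq (GRCm38.p6), on both strands, the CCAAT box (CCAAT) was found in 13 of 14 sterol genes with a listed promoter (92.9%), against 35.7% of 14452 measured genes. The box is bound by the factor NF-Y. The same letters were in 18 of 21 promoters of ER folding genes (85.7%), 7 of 8 of MHC class II genes (87.5%), 17 of 26 of G1/S genes (65.4%) and 18 of 21 of G2/M genes (85.7%), so they occurred in lists that rose, that fell and that hardly changed. Among all genes that were higher at 12 h in IkL/L cells 39.0% had a box, and among those that were lower 32.6%. The box was picked out of 12 motifs after the shares were seen. Of the other 11, none was in more of the 14 sterol promoters than the NF-kB site, which was in 5 (35.7%). The sterol response element was in 1 of the 14 (7.14%). The other 11 and their shares of all promoters were the E2F site TTCCCGCC (2.8%) and its second form TTTCGCGC (0.394%), the E-box CACGTG (7.56%), the cyclic AMP element TGACGTCA (2.27%), the serum response element, which is CC, ATATTA and GG in a row (0.0208%), the AP-1 site TGANTCA (5.58%), the NF-kB site, which is GGGA and CC with 4 bases between (21.2%), the sterol response element TCACNCCAC (1.02%), the ATF4 site TGATGNAA (2.43%), the Ikaros core TGGGAA (21.1%) and the interferon element, which is GAAA and GAAA with 2 bases between (2.63%). None of the other 11 holds CCAAT or its complement within its fixed letters, but their ends can overlap a box. The Ikaros core was in 19.9% of promoters of genes that were higher at 12 h and in 19.2% of those that were lower, so its shares lay close to that of all genes. The stretches below show where the boxes lie in 4 sterol genes, each 100 bases on the strand of the gene, with CCAAT or its complement ATTGG in capitals. They run from chr3:89454357-89454456 on the plus strand for Pmvk, chr5:114444169-114444268 on the plus strand for Mvk, chr10:76531505-76531604 on the plus strand for Lss and chr5:4104698-4104797 on the minus strand for Cyp51.
Pmvk: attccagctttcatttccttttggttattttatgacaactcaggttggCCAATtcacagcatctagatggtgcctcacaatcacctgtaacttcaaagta
Mvk: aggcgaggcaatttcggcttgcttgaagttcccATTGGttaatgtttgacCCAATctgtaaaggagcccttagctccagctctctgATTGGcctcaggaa
Lss: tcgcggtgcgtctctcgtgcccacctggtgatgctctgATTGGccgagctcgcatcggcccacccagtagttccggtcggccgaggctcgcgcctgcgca
Cyp51: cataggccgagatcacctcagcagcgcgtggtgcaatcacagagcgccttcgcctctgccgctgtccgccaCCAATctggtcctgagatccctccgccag

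Class II histocompatibility genes, which present peptides to helper T cells, fell. Of 12 measured members 7 were lower and 1 higher, with a median of -1.11, and with housekeeping scaling 9 were lower and none higher. Without replicate 1 at 3 h, and likewise without replicate 2 at 12 h, 5 were lower and none higher, while leaving out IkL/L replicate 2 throughout gave 3 lower members. H2-Ab1 read 11.03 and 10.33 at 12 h, against 12.39 and 12.31 at 3 h (3.18-fold lower, adjusted p = 0.00049). H2-Eb1 read 11.56 and 11.26 at 12 h, against 12.93 and 12.86 at 3 h. H2-Ob, a chain of the H2-O protein that restrains peptide loading, read 10.86 and 10.50 without stimulus, 8.97 and 8.82 at 3 h, and 7.70 and 6.54 at 12 h. H2-Oa, its partner, read 7.58 and 6.65 at 12 h, against 8.46 and 8.63 at 3 h, and fell 2.70-fold. The 2 conventional chains thus held their unstimulated level at 3 h (12.48 and 12.32 for H2-Ab1, 12.76 and 12.70 for H2-Eb1), while both H2-O chains read lower at 3 h than without stimulus (H2-Oa had 10.25 and 10.14 without stimulus). The master regulator of these genes, Ciita, chosen after its values were seen, read 3.93 and 3.57 at 12 h, against 4.99 and 5.25 at 3 h, and did not pass the threshold (adjusted p = 0.173). Rfxank, a subunit of the RFX factor, was the member that was higher, and lost its call without replicate 1 or 2 at 3 h or replicate 2 at 12 h (adjusted p between 0.0967 and 0.186). The stretches of 3 of the falling genes below show a CCAAT box as in the rising sterol genes, and they lie at chr17:34238805-34238904 for H2-Ob, chr17:34305767-34305866 for H2-Eb1 and chr17:34092279-34092378 for H2-Oa, all on the plus strand of GRCm38.p6, from RefSeq.
H2-Ob: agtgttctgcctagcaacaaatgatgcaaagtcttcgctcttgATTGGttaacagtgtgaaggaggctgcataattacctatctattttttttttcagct
H2-Eb1: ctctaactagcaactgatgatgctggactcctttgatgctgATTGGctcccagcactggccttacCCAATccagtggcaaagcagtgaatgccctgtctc
H2-Oa: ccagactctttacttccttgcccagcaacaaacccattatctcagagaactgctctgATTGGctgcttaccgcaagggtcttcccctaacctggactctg

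Of 30 measured ribosome biogenesis factors 13 were lower at 12 h, none was higher and 17 did not pass the test, and 29 of 30 had a negative difference, with a median of -0.57. Rrp1b, a nucleolar processing factor, read 7.28 and 7.39 without stimulus, 9.62 and 9.37 at 3 h, and 8.10 and 8.13 at 12 h, a 2.60-fold fall between the stimulated times (adjusted p = 0.001). Wdr43, a subunit of the small subunit processome, read 8.99 and 9.15 at 12 h, against 9.91 and 10.03 at 3 h, and missed the threshold without replicate 2 at 3 h (adjusted p = 0.0542). The count depended on single arrays and on the scaling. It was 28 with housekeeping scaling, 5 and 2 without replicate 1 or 2 at 3 h, 4 and 8 without replicate 1 or 2 at 12 h, 7 without WT replicate 1 in all conditions, and 3 or 4 when IkL/L replicate 1 or 2 was left out throughout. Of 12 members of the Myc and Max network 5 were lower and 1 higher. Mxd1, a repressor that competes with Myc for Max, read 4.25 and 4.51 at 12 h, against 6.34 and 6.35 at 3 h, and Mga, another partner of Max, fell 2.12-fold.

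Energy metabolism moved the other way. Of 29 respiratory chain and ATP synthase genes 13 were higher and none lower, and 28 of 29 differences were positive, with a median of 0.41. Atp5g1, a subunit of the ATP synthase ring, read 9.31 and 9.70 at 12 h, against 8.07 and 8.27 at 3 h (2.52-fold higher, adjusted p = 0.000352). Ndufv1, a core subunit of complex I, read 10.18 and 10.32 at 12 h, against 9.36 and 9.21 at 3 h. The higher count was 7 without replicate 1 at 3 h or replicate 1 at 12 h and 8 without replicate 2 at 12 h. With housekeeping scaling 5 were higher and 1 lower and the median was 0.06, so the direction of the list is relative to the scaling. Of 18 genes of glycolysis and glucose uptake 8 were higher and none lower, with 5 higher without any single array and 5 higher and 4 lower with housekeeping scaling. Aldoa (aldolase) read 11.88 and 12.11 at 12 h, against 10.77 and 10.95 at 3 h, and Tpi1 (triose phosphate isomerase) was 2.44-fold higher. Pkm, the pyruvate kinase, was 2.36-fold higher. Of 23 genes for amino acid, serine and one-carbon metabolism 3 were higher and 4 lower. Of 17 for purine and pyrimidine synthesis 1 was higher and 3 lower, and 5 were lower with replicate as a block. Among all genes 9.12% were higher and 6.42% lower. In the first list the higher members Asns and Cth lost their calls with centring on the median (limma, adjusted p = 0.117 and 0.053). With housekeeping scaling 1 was higher and 9 lower in the first list and 1 higher and 8 lower in the second. Slc7a1, a transporter of basic amino acids, read 10.95 and 10.97 at 12 h, against 12.29 and 12.41 at 3 h, and Shmt1, an enzyme of the one-carbon cycle, fell 2.21-fold.

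Protein folding in the endoplasmic reticulum (ER) followed the same sense in part. Of 24 ER folding and unfolded protein response genes 10 were higher and 2 lower. The higher count was 6 and 5 without replicate 1 or 2 at 3 h and 2 without replicate 1 at 12 h, and housekeeping scaling gave 3 higher and 6 lower. Xbp1, the transcription factor of the unfolded protein response, read 9.73 and 9.89 at 12 h, against 8.84 and 8.94 at 3 h (adjusted p = 0.00245). Dnajb9, an ER cochaperone that Xbp1 is known to induce, read 7.29 and 7.59 at 12 h, against 8.83 and 9.14 at 3 h, a 2.93-fold fall. Of 18 cytosolic chaperones 2 were higher and none lower, and with housekeeping scaling 1 was higher and 5 lower. Among all genes 9.12% were higher, so this list lay near that share. Hspa1a, the inducible HSP70, which was chosen after its values were seen, differed by replicate: it read 4.06 and 7.21 at 12 h, against 6.76 and 8.78 at 3 h, and did not pass the threshold (adjusted p = 0.219).

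Genes of the G1 to S transition and of DNA replication were higher in 10 of 32 measured members and lower in 1, with a median of 0.49, and 28 of 32 differences were positive. Uhrf1, which maintains DNA methylation at replication, read 6.00 and 5.93 at 12 h, against 4.53 and 4.5 at 3 h (2.72-fold higher, adjusted p = 0.000801). Gins2, a subunit of the replicative helicase, was at least 2.45-fold higher. Rfc5 and Rfc2, subunits of the clamp loader, were 2.58-fold and 2.10-fold higher. Rfc2 exceeded its unstimulated levels of 7.71 and 8.01 on 1 of its 2 arrays at 12 h (8.03 and 7.84, against 6.82 and 6.91 at 3 h). Cdt1, a licensing factor, was the member that was lower. Mitotic genes hardly registered: of 27 measured G2/M genes 18 were under the floor on all 4 arrays, 2 were higher and none lower. Among all genes 9.12% were higher and 6.42% lower. With housekeeping scaling 6 G1/S genes were higher and 3 lower, and the count of higher members was 7 without replicate 1 at 12 h and 4 when IkL/L replicate 1 was left out throughout.

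Cell cycle controllers showed different courses. Of 22 D and E cyclins, CDKs and their inhibitors 5 were higher and 1 lower, and with housekeeping scaling 4 were higher and 4 lower. Among all genes 9.12% were higher and 6.42% lower. Ccnd2, the D cyclin that BCR signals induce, read 9.53 and 10.03 without stimulus, 10.93 and 10.82 at 3 h, and 10.69 and 9.77 at 12 h. The difference between the stimulated times was -0.65 and did not pass the threshold (adjusted p = 0.23), except without replicate 1 at 12 h (adjusted p = 0.0468) and with housekeeping scaling. Ccnd3, another D cyclin, read 5.74 and 6.09 at 12 h, against 4.55 and 4.63 at 3 h (2.52-fold higher). Cdk6, a partner of the D cyclins, fell 3.21-fold. Cdkn1b, the inhibitor p27, read 6.93 and 6.07 without stimulus, 4.27 and 4.09 at 3 h, and 4.48 and 4.71 at 12 h, and its levels at 12 h and 3 h did not differ past the threshold (adjusted p = 0.381). Rbl2, a relative of the retinoblastoma protein known from resting cells, was at least 2.32-fold higher. Of 23 quiescence and FOXO-linked genes 7 were lower and 2 higher, and with replicate as a block 8 were lower and 4 higher. Without replicate 2 at 3 h or replicate 1 at 12 h 4 were lower, and with housekeeping scaling 9 were lower and 1 higher. Klf4, a growth inhibitor of resting lymphocytes, read 2.75 and 2.71 at 12 h, against 6.71 and 6.52 at 3 h, and Pik3ip1, an inhibitor of PI3K, fell 3.68-fold.

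B cell identity was measured through 17 transcription factors, of which 6 were lower and 3 higher, beside 6.42% and 9.12% of all genes. Ebf1, an early B cell factor, read 7.23 and 7.33 at 12 h, against 9.31 and 9.35 at 3 h (4.15-fold lower, adjusted p = 1.55e-05). Irf4, which drives plasma cell fate at high dose, read 9.95 and 10.72 without stimulus, 11.97 and 12.12 at 3 h, and 10.54 and 10.32 at 12 h. Id2 and Id3, inhibitors of E proteins, moved apart: Id2 read 4.44 and 5.50 at 12 h, against 7.66 and 7.80 at 3 h, and Id3 read 8.57 and 8.27 at 12 h, against 6.99 and 6.39 at 3 h. The call of Id3 was lost without replicate 2 at 3 h (adjusted p = 0.0639). Without replicate 2 at 12 h 3 factors were lower and 4 higher, and with replicate as a block 6 were lower and 6 higher.

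Within the Ikaros family, Ikzf1 itself was 1.94-fold higher at 12 h than at 3 h on its brightest probe set. With the mean of all its probe sets the log2 difference was 0.48 and missed the threshold (limma, adjusted p = 0.0747). A fit of only the arrays compared missed it too (0.95, adjusted p = 0.0571). Ikzf1 transcript was present on every IkL/L array: 10.00 and 9.94 without stimulus, 8.58 and 8.08 at 3 h, and 9.59 and 8.98 at 12 h. The call was lost without replicate 2 at 3 h (adjusted p = 0.119) or replicate 1 at 12 h (adjusted p = 0.105). WT cells read 9.85 and 9.83, then 8.93 and 9.10, then 10.33 and 10.00 in the same order, and the test of the difference between the shifts missed the threshold (difference -0.19, SE 0.31, adjusted p = 0.961). The position of the probes relative to the change in the L allele was not known here, so this level is no check of the genotype. Ikzf3 (Aiolos), the close relative of Ikaros, read 7.70 and 7.41 at 12 h, against 6.62 and 6.56 at 3 h, and its call was lost without replicate 1 at 12 h (adjusted p = 0.0518). Of 22 NuRD and Polycomb genes 4 were higher and 3 lower, beside 9.12% and 6.42% of all genes. With replicate as a block 4 were higher and 5 lower, and with housekeeping scaling 3 and 10. The lower members Cbx7 and Rnf2 lost their calls with the mean of all probe sets (limma, adjusted p = 0.47 and 0.0909). Mta3, a NuRD subunit of B cells, read 6.85 and 7.13 at 12 h, against 5.51 and 5.25 at 3 h, and Ezh2, the Polycomb methyltransferase, was 2.31-fold higher.

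Smaller lists add a few members, beside 9.12% of all genes called higher and 6.42% called lower. Of 13 BCL2 family genes 2 were lower and 1 higher. Mcl1, a survival factor, read 10.34 and 9.85 at 12 h, against 10.93 and 10.88 at 3 h. Of 14 Notch pathway genes 2 were higher, among them Dtx4, a ubiquitin ligase, at 7.06 and 7.20 at 12 h, against 5.49 and 5.42 at 3 h. The other, Notch1, lost its call with centring on the median (limma, adjusted p = 0.106) and with housekeeping scaling (adjusted p = 0.266). Of 8 mRNA decay factors 3 were lower. The largest fall there was in Zfp36, a protein that destabilises cytokine mRNAs, which was 2.46-fold lower (3 members without replicate 1 at 12 h, 2 without replicate 1 at 3 h and 1 without replicate 2 at 3 h or at 12 h). Among 18 type I interferon response genes 1 was higher, Oas3, which was under the floor on all 4 arrays and lost its call without any single IkL/L array, and 6 were higher and 1 lower with replicate as a block. This list differed by replicate in WT: Ifit2, chosen after its values were seen, read 9.21 and 3.35 on the WT arrays at 3 h.

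Markers of other cell types were low. T cell markers were under the floor on all 4 IkL/L arrays with anti-IgM in 8 of 10 measured genes, natural killer cell markers in 8 of 8, erythroid markers in 4 of 6 and myeloid markers in 8 of 13. None changed except Adgre1, a macrophage antigen, which read 5.16 and 5.94 at 12 h, against 3.37 and 3.50 at 3 h. The summed linear level of the 13 myeloid markers was between 201 and 299 at 12 h and between 179 and 316 at 3 h. Among 8 measured follicular B cell markers 4 were higher at 12 h (Cd79b, Cd22, Cd79a and Ms4a1) and 2 lower (Ebf1 and Fcer2a). The calls of Cd79a and Ms4a1 were lost without replicate 2 at 3 h or replicate 1 at 12 h. They were also lost with centring on the median (limma, adjusted p = 0.0531 and 0.0509) and with housekeeping scaling (limma, adjusted p = 0.0782 and 0.163). Fcer2a, which encodes the CD23 used in the sort, read 6.89 and 6.37 at 12 h, against 9.06 and 9.25 at 3 h (5.75-fold lower, adjusted p = 8.07e-05). Summed over the list the level was between 4104 and 6057 at 12 h and between 3273 and 3602 at 3 h. Both lay below the sum on the IkL/L arrays without stimulus, which was between 10583 and 11574. Of 10 plasma cell markers 3 were higher and 2 lower. Mzb1, an ER protein of antibody secretion, read 10.24 and 10.22 without stimulus, 7.32 and 7.28 at 3 h, and 10.20 and 10.09 at 12 h, a 7.20-fold rise between the stimulated times (adjusted p = 8.83e-06). Jchain, the joining chain of polymeric antibody, chosen after its values were seen, differed by replicate at both times (4.28 and 6.90 at 12 h, against 5.72 and 8.14 at 3 h, adjusted p = 0.557). Of 9 marginal zone and B1 markers 2 were higher and 3 lower. In bulk RNA, fewer cells of a type and less RNA per cell cannot be told apart.

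The same shift was measured in WT cells on 4 separate arrays. There 1182 genes were higher at 12 h (6.5% of those tested) and 788 were lower (4.33%). With replicate as a block within genotype they were 1758 and 1332, and without WT replicate 1 in all conditions 370 and 154. Left out singly, replicate 1 or 2 at 3 h gave 652 and 403 or 787 and 509, and replicate 1 or 2 at 12 h gave 1050 and 545 or 631 and 493, higher and lower. In IkL/L cells the block within genotype gave 2278 higher and 1697 lower genes, more than in WT by the same fit. In the main fit, genes that were higher in both genotypes numbered 915, which is 55.2% of the IkL/L list and 77.4% of the WT list. Genes that were lower in both numbered 607, or 52.0% and 77.0% of the lists. Leaving out WT replicate 1 in all conditions leaves 1 array per WT group, with the spread taken from the IkL/L arrays alone. The smaller WT lists and counts of that fit therefore cannot be set down to replicate 1 itself. With the WT list taken without WT replicate 1, 309 genes were higher in both (18.6% of the IkL/L list and 83.5% of the WT list) and 129 lower (11.0% and 83.8%). Across 18193 genes the shift in IkL/L cells correlated with that in WT cells at r = 0.809, and at r = 0.876 across the brightest 6065. Without WT replicate 1 these were 0.703 and 0.798. These correlations are across genes, which are not independent replicates. Of the 1659 genes that were higher in IkL/L cells 1597 had a positive difference in WT cells too, with medians of 0.93 in IkL/L and 0.71 in WT, and 1555 did without WT replicate 1. Since these genes were picked for their change in IkL/L cells, a smaller median in WT is no test of a difference. Gene groups stood in different relations between the genotypes. Sterol synthesis had 14 higher members in IkL/L cells and 7 in WT cells, and BCR signalling components had 13 and 6. The respiratory chain had 13 and 12, and G1/S genes had 10 and 13. MHC class II had 7 lower members in each genotype, and homing receptors had 6 in IkL/L cells and 8 in WT cells. Without WT replicate 1 the WT counts of these 6 groups were 3, 2, 2, 3, 3 and 5. The test of the difference itself found no gene of these groups.

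Tested directly, the shift differed between the genotypes in 7 genes, 4 with a higher difference in IkL/L (0.022% of those tested) and 3 with a lower one (0.0165%), or 0.0385% in both directions. At an unadjusted p under 0.05 there were 1141, and with replicate as a block within genotype 12 higher and 9 lower genes passed the adjusted threshold. All 7 lost their call in some other setting: each was past the threshold in none of the 3 fits without a replicate of a genotype in all conditions (IkL/L replicate 1, IkL/L replicate 2 or WT replicate 1), with adjusted p between 0.108 and 0.567. Single arrays mattered as well, and without replicate 1 of IkL/L at 3 h no gene was past the threshold.

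**Figure D4:**
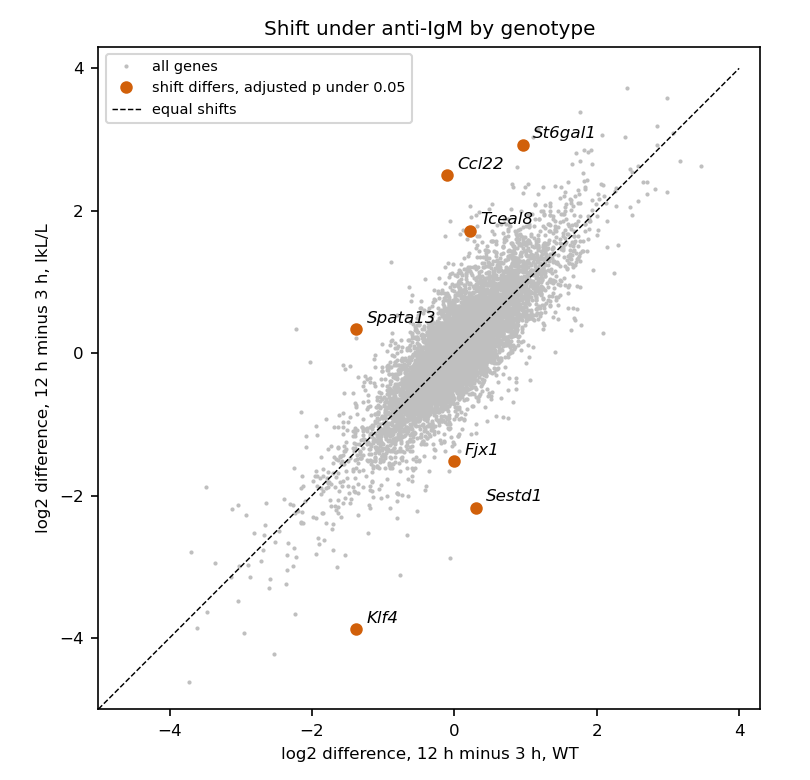
Log2 difference between 12 h and 3 h in IkL/L cells (vertical) against that in WT cells (horizontal), 1 grey point per gene; the 7 larger points are the genes whose shift differed between genotypes (adjusted p under 0.05), and the dashed line marks equal shifts. Most genes lie along the line (r = 0.809), with Ccl22 and St6gal1 above it and Klf4 and Sestd1 below it.

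Among the 4 positive differences, Ccl22 and Tceal8 rose in IkL/L cells while their WT arrays stayed under the floor. Ccl22 read 6.54 and 6.82 at 12 h and 4.06 and 4.3 at 3 h in IkL/L cells, a rise of at least 5.38-fold, against 3.90 and 3.65 at 12 h and 4.01 and 3.77 at 3 h in WT cells. The difference of the shifts was 2.61 (SE 0.22, adjusted p = 0.00514). It held without any single array except replicate 1 of IkL/L at 3 h, where the adjusted p was 0.0531. Tceal8, a protein related to elongation factors, read 5.27 and 5.24 at 12 h and 3.51 and 3.57 at 3 h in IkL/L cells, against 2.96 and 3.09 at 12 h and 2.72 and 2.88 at 3 h in WT cells (difference 1.5, SE 0.17, adjusted p = 0.024). It missed the threshold without any 1 of the 8 arrays, with adjusted p between 0.0687 and 0.189.

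St6gal1 and Spata13 differed through their levels in both genotypes. St6gal1 read 10.79 and 10.59 at 12 h and 7.91 and 7.60 at 3 h in IkL/L cells, against 10.11 and 10.52 at 12 h and 9.16 and 9.55 at 3 h in WT cells. At 12 h both IkL/L arrays were above both WT arrays, and at 3 h both were below them. The difference of the shifts was 1.97 (SE 0.26, adjusted p = 0.0491), and it missed the threshold when any 1 of the 8 arrays was left out (adjusted p between 0.0563 and 0.31). Spata13, a guanine nucleotide exchange factor, read 5.51 and 5.59 at 12 h and 5.29 and 5.13 at 3 h in IkL/L cells, against 4.38 and 4.05 at 12 h and 5.59 and 5.61 at 3 h in WT cells (difference 1.72, SE 0.20, adjusted p = 0.024). Its fall in WT passed the threshold (adjusted p = 0.000343, and 0.0202 without WT replicate 1) and its change in IkL/L cells did not (0.34, adjusted p = 0.166). Of the single arrays, it held only without replicate 1 of WT at 12 h, and with the mean of all probe sets the difference was 0.57 (adjusted p = 0.456).

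**Figure D5:**
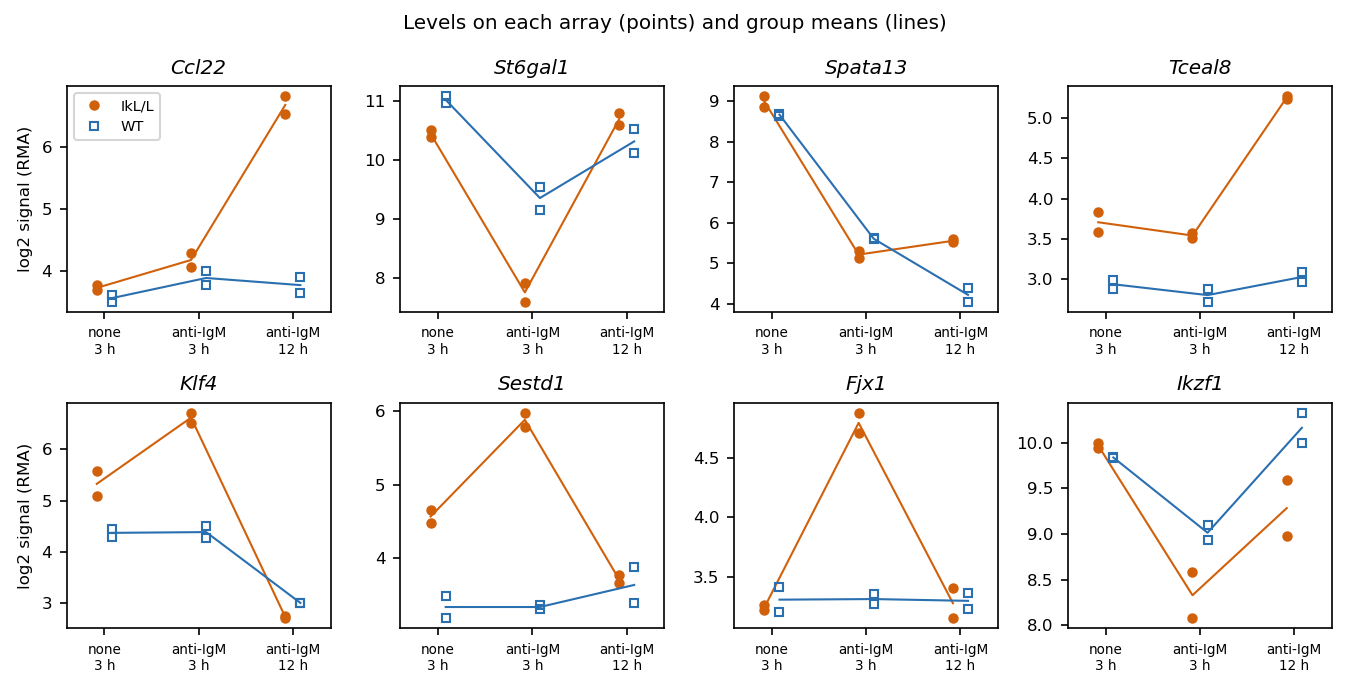
Log2 signal of the 7 genes whose shift differed between genotypes, and of Ikzf1, in each condition; filled circles are IkL/L arrays, open squares WT arrays and lines the group means. Klf4, Sestd1 and Fjx1 have their highest arrays in IkL/L cells at 3 h, and Ccl22 and Tceal8 in IkL/L cells at 12 h.

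The 3 negative differences were of genes with a peak at 3 h in IkL/L cells. Klf4 read 2.75 and 2.71 at 12 h and 6.71 and 6.52 at 3 h in IkL/L cells, a fall of at least 5.29-fold, against 3.01 and 3.00 at 12 h and 4.27 and 4.5 at 3 h in WT cells. The difference of the shifts was -2.50 (SE 0.23, adjusted p = 0.00767), and the call was lost without replicate 1 of WT at 3 h (adjusted p = 0.0535), replicate 1 of IkL/L at 3 h (0.0712) or replicate 2 of IkL/L at 12 h (0.0621). Sestd1, a spectrin repeat protein that binds phosphoinositides, read 3.77 and 3.66 at 12 h and 5.98 and 5.79 at 3 h in IkL/L cells, against 3.88 and 3.40 at 12 h and 3.37 and 3.31 at 3 h in WT cells. Its difference was -2.47 (SE 0.24, adjusted p = 0.00863), lost without replicate 1 or 2 of WT at 3 h, replicate 1 of IkL/L at 3 h or replicate 2 of IkL/L at 12 h (adjusted p between 0.0541 and 0.0866). Fjx1, a relative of the fly kinase four-jointed, read 3.15 and 3.40 at 12 h and 4.71 and 4.88 at 3 h in IkL/L cells, against 3.23 and 3.36 at 12 h and 3.35 and 3.27 at 3 h in WT cells. Its difference was -1.51 (SE 0.19, adjusted p = 0.0321), and no fit without 1 of the 8 arrays kept it (adjusted p between 0.0665 and 0.266). At 12 h the levels of Klf4, Sestd1 and Fjx1 were under the floor in both genotypes, so their differences rest on the 3 h arrays.

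Called in opposite directions were 2 genes, chosen after their values were seen, and no gene fell in IkL/L while it rose in WT. Arhgef18, a guanine nucleotide exchange factor, read 5.72 and 5.86 at 12 h and 4.44 and 4.58 at 3 h in IkL/L cells, against 5.61 and 5.86 at 12 h and 6.26 and 7.01 at 3 h in WT cells. The 12 h levels overlapped and the 3 h levels did not. Mpp1, a membrane scaffold protein, read 7.09 and 6.91 at 12 h and 6.47 and 6.48 at 3 h in IkL/L cells, against 7.16 and 7.03 at 12 h and 7.76 and 7.77 at 3 h in WT cells. The difference of the shifts missed the threshold in both genes (adjusted p of 0.0973 for Arhgef18 and 0.0617 for Mpp1). Without WT replicate 1 Arhgef18 kept both calls, while Mpp1 lost that in WT (adjusted p = 0.106) and that in IkL/L (adjusted p = 0.0527).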

How the data were processed

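The deposited values are log2 signals from Affymetrix 3' mouse arrays, 1 per sample, made by the authors with RMA, per the submitters' processing notes (version not given in the sources used here). RNA (100 ng) was amplified in 2 cycles of labelling, per the labels' protocols. Of 45037 probe sets, 34945 carried 1 gene symbol, 932 several and 9160 none in the platform annotation; the last 2 kinds were left out of the gene counts. Contrasts were fitted with limma 3.58.1 in R 4.3.3 on all 12 arrays, with 1 mean per group and Benjamini-Hochberg adjustment over 18193 genes, two-sided. The limma step was tested on simulated data. The number of arrays limits precision.

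Named genes were the 12 largest changes in each direction with groups that do not overlap, up to 4 changed genes per list and direction, the genes whose shift differed between genotypes, and 10 fixed genes (Cd22, Cd69, Cd86, Fcgr2b, Ikzf1, Ikzf3, Egr1, Myc, Cdkn1b and Ccnd2). Genes and lists were chosen with earlier results of these data known. Replicate numbers were taken to pair arrays within a genotype: deviations from group means of same-numbered arrays correlated between 0.354 and 0.619 within genotypes and between 0.026 and 0.31 across them (6064 genes). The alternatives were replicate blocks, other probe set rules, filters, variance settings and scalings, and leaving out arrays. The setting without WT replicate 1 was chosen after seeing the data.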

Additional observations from a re-analysis of the deposited data

Results flagged for a closer look

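The shift between 12 h and 3 h with anti-IgM differed between IkL/L and WT cells, by the limma test of the difference itself, in 7 genes. The log2 difference of the shifts (IkL/L minus WT) was 2.61 for Ccl22, 1.97 for St6gal1, 1.72 for Spata13 and 1.5 for Tceal8. It was -2.5 for Klf4, -2.47 for Sestd1 and -1.51 for Fjx1. Each missed the threshold when IkL/L replicate 1, IkL/L replicate 2 or WT replicate 1 was left out in all conditions.

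Probe sets outside the gene counts also changed. Of 9160 probe sets with no listed gene, 121 were higher and 565 lower at 12 h than at 3 h in IkL/L cells. The same probe sets in WT cells gave 71 higher and 184 lower. They are unnamed here. Of 932 probe sets with several symbols, 78 were higher and 34 lower in IkL/L cells.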

How the results depend on the processing

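No called difference of a named gene changed sign under any alternative, but the split of rises and falls in IkL/L turned from 58.7% higher to 45.3% with median centring and 14.6% with housekeeping scaling. Spata13, not called in IkL/L (0.34), was at -0.02 with housekeeping scaling. Sizes moved widely in some named genes, such as Abca1, whose log2 difference lay between -3.39 and -1.11. Of 176 named genes tested between 12 h and 3 h in IkL/L cells 94 kept their side of the threshold in each of the 16 alternatives, and over all of them 2505 of 2816 values kept it, 308 lost it and 3 gained it. The replicate block changed no call among these genes. Leaving out arrays of the genotype compared, or a replicate in all conditions, gave between 627 and 1469 higher and between 431 and 1005 lower genes in IkL/L cells, between 370 and 1074 higher and between 154 and 775 lower in WT cells, and between 0 and 7 higher and between 0 and 2 lower for the difference of the shifts. Without IkL/L replicate 1 in all conditions IkL/L counts were 758 and 510. For 1 array of the same genotype left out at a time, IkL/L counts lay between 1021 and 1248 higher and between 590 and 812 lower, and WT counts between 631 and 1050 higher and between 403 and 545 lower. Without 1 array of the other genotype they were 1598 to 1676 higher and 1120 to 1185 lower in IkL/L, and 1101 to 1184 and 727 to 765 in WT. With replicate as a block within genotype 2278 genes were higher and 1697 lower in IkL/L, and 1758 and 1332 in WT. The difference then had 12 higher and 9 lower genes, and with a block shared by both genotypes it had 8 and 6. A fit of only the arrays compared gave 713 higher and 484 lower genes in WT, and 1 higher and 2 lower for the difference. Housekeeping scaling gave 785 higher and 4587 lower genes in IkL/L, 616 and 1367 in WT, and 2 higher and 2 lower for the difference. Centring on the median gave 2 higher and 3 lower for the difference. The causes of these moves were not tested, and the fits that left out arrays also had fewer of them. All 7 genes of the difference lost their call in at least 1 alternative (73 of 140 values). With 2 arrays per group single arrays decide many calls, and no fold is given where both groups are under the floor of 4.21.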
